A study of Homo sapiens with 8 samples.

Results

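The oligosaccharyltransferase (OST) complex of the endoplasmic reticulum (ER) is described here through 10 of its genes, STT3A, STT3B, RPN1, RPN2, DDOST, DAD1, OSTC, KRTCAP2, MAGT1 and TUSC3. They were chosen by name, and all 10 had a row among the 18555 genes of the count table, so none is left out below. RNA-seq compared 3 siXBP1 libraries, from cells that had received an siRNA against XBP1, with 3 siNC libraries, from cells that had received the Allstar control siRNA. Both groups were then exposed to 30 nM thapsigargin for 3 hours, starting 2 days after transfection. The cells are labelled HepG2, an established human line from a liver tumour. Thapsigargin blocks the calcium pump of the ER and sets off the unfolded protein response, in which XBP1s, the spliced form of XBP1, is a transcription factor. The comparison therefore concerns less XBP1 under ER stress, since neither group was left without thapsigargin. The study addresses the action of XBP1s in hepatocellular carcinoma cells.

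Library totals lay between 38209972 and 38890070 counts. XBP1, the targeted gene, had 11158, 11587 and 10554 counts in siXBP1, against 21455, 19495 and 19240 in siNC. Its log2 fold change was -0.84 (SE 0.08, adjusted p = 0.0331 in edgeR), which made it lower in siXBP1, with 55.7% of the siNC level left. The call ended when either siXBP1 replicate 1 or 2, or either siNC replicate 2 or 3, was left out, with fold changes from -0.88 to -0.84 in those 4 fits. Markers of hepatocytes went against the label: 5 of 10 have a row, their summed level was 1.91 to 3.51 CPM in siXBP1 and 1.82 to 2.57 CPM in siNC, and AFP, TF, SERPINA1 and HNF4A stayed at or below 0.523 CPM in every library. CPM are counts scaled to a common library total, as is usual for RNA-seq. KRT17, a keratin of other epithelia, averaged 3364 ± 409 CPM (SD, n = 6). It was the highest of 8 genes listed for other epithelial and mesenchymal lines, of which 6 averaged at least 1 CPM. Of the same list, the epithelial genes CDH1 and EPCAM stayed at or below 0.624 and 0.103 CPM. The list summed to 7036 to 8735 CPM in siXBP1 and 7284 to 9304 CPM in siNC. It includes KRT8, KRT18 and CDH2, with means of 1211, 702 and 167 CPM over the 6 libraries. KRT8, KRT18 and CDH2 are not particular to other lines, so the sum alone does not settle the label. The rest of it came almost wholly from KRT17, KRT7 and VIM, with KRT7 and VIM averaging 1473 and 1176 CPM. The identity of the line was not tested. Among other lists, 4 of 5 fibroblast genes with a row averaged at least 1 CPM, with sums of 341 to 348 CPM in siXBP1 and 318 to 334 CPM in siNC. The leukocyte list summed to at most 0.837 CPM in siXBP1 and 0.951 CPM in siNC, and the endothelial list to 6.32 to 8.87 CPM in siXBP1 and 7.74 to 9.33 CPM in siNC. The part of these markers in the results was not tested. In such bulk samples, fewer cells of a type and less RNA per cell cannot be told apart.

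The OST complex moves a preassembled sugar tree from the lipid dolichol to asparagines of proteins that enter the ER, the first step of N-linked glycosylation. Human cells build it in 2 forms. The form with the catalytic subunit STT3A sits at the SEC61 channel and glycosylates chains while they are being made, and the form with STT3B reaches sites that the first has skipped. Many genes for proteins of the secretory route are textbook targets of XBP1s.

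Promoter windows were taken from RefSeq (GRCh38.p14), 250 bases before to 50 after a transcript start, and 7 of the 10 genes had one, MAGT1 having 2. Those of 3 genes are shown: STT3A, whose groups stood apart in CPM, MAGT1, which had the lowest fold change, and DDOST, whose window holds the searched core on both strands. Capitals mark ACGTG, the core of the elements that XBP1s is known to bind, read on either strand. The windows lie at chr11:125592602-125592901 (plus strand), chrX:77895519-77895818 (minus strand) and chr1:20661320-20661619 (minus strand).
STT3A: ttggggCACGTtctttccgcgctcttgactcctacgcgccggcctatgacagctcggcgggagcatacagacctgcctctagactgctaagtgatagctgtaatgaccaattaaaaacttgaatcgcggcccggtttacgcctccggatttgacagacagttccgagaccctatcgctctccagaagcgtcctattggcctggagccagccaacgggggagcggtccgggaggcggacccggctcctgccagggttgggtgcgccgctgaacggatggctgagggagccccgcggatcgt
MAGT1: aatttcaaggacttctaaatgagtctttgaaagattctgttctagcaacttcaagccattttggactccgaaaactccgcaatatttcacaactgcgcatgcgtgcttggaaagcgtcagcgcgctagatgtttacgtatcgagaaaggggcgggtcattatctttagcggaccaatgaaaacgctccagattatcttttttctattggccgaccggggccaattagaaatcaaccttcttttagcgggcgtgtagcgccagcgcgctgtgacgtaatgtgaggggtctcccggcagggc
DDOST: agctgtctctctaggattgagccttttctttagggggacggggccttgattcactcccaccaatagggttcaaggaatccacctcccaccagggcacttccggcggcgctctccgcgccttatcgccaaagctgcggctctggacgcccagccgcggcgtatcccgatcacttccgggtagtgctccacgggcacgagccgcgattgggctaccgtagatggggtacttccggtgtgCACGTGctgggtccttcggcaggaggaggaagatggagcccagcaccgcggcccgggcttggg

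In STT3A the core begins 244 bases before the transcript start. That start and the whole window lie inside the annotated gene (125591769 to 125623091), so it is not the gene's first start. In DDOST 2 overlapping copies, 13 and 12 bases before the start, form the palindrome CACGTG. In MAGT1 neither window held the core. The core was present for 4 of 7 OST genes (57.1%), DAD1 and OSTC being the others, against 30.2% of the 13912 genes of the table with a window. The shorter motif CCACG was present for DDOST and OSTC (28.6%), against 53.2% of all such genes, and in OSTC 1 of its copies overlaps the core. None of the 7 held the longer elements, which were also searched on both strands: the ER stress element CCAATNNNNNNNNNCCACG (0.137% of all genes with a window), its second form ATTGGNCCACG (0.115%) and the unfolded protein response element TGACGTGG (1.15%). These are matches of letters in short windows and say nothing of binding.

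No OST gene passed the test of siXBP1 against siNC. Estimates were below 0 for 8 of the 10, with a median log2 fold change of -0.08, where 47.2% of the 14337 genes tested had an estimate below 0 and the median over them was 0.01. The OST median was closer to 0 without siNC replicate 1 (-0.0415) or siXBP1 replicate 1 (-0.0471). Without both siNC replicate 1 and siXBP1 replicate 3, 5 of the 10 estimates were below 0 and the median was 0.0066. In the libraries left by that fit, the group cannot be told apart from the first principal component described below. With that component as a covariate, 8 of the 10 were below 0 and the median was -0.0592. Several of the 10 genes varied together over the libraries, so their directions are not separate observations. With edgeR's quasi-likelihood test and Benjamini-Hochberg adjustment over all genes, 0 of 10 were called, as was 0.00697% of all genes, XBP1 alone. At an unadjusted p under 0.05, edgeR gave 0 of 10, against 3.61% of all genes. DESeq2 called 0 of 10 as well, against 0.105% of all genes. Every OST gene had an adjusted p of 1.00 with edgeR and with DESeq2, and the 95% intervals below give the sizes of change that these libraries leave possible. In CPM, 1 OST gene, STT3A, had all siXBP1 libraries below all siNC libraries, which held for 3.74% of all genes, and none had them all above, which held for 5.01%.

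**Figure D1:**
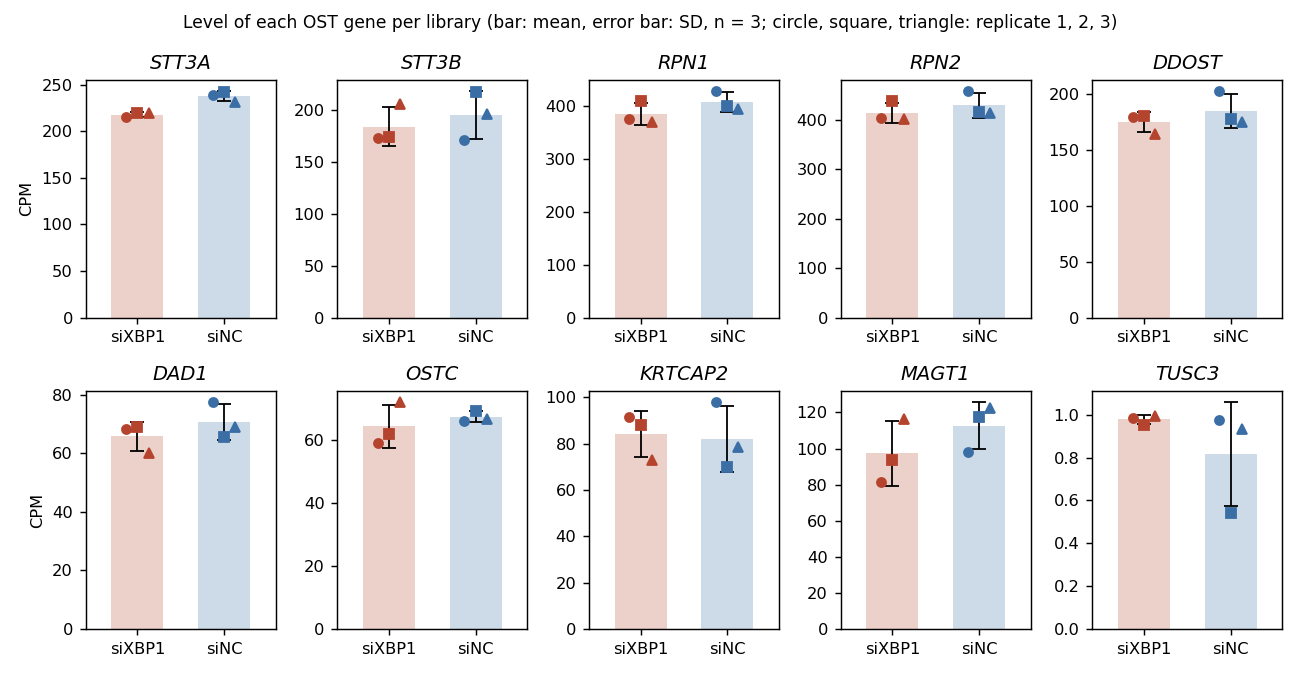
Level of each OST gene in CPM (vertical axes, from 0), in siXBP1 and siNC libraries. Bars are means, error bars the SD over 3 libraries, and circles, squares and triangles replicates 1, 2 and 3; the STT3A points of siXBP1, at 215, 219 and 220 CPM, lie below those of siNC, at 239, 242 and 232 CPM, and in the other panels the groups overlap.

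The transcripts of both catalytic subunits had lower estimates in siXBP1. STT3A (gene ID 3703, chromosome 11, 125591769 to 125623091) had 8265, 8497 and 8390 counts in siXBP1, against 9297, 9417 and 8922 in siNC. In CPM this was 215, 219 and 220 in siXBP1 and 239, 242 and 232 in siNC. The 2 groups did not overlap, also after scaling by TMM, edgeR's normalization factors, where the highest siXBP1 library had 223 and the lowest siNC library 232. The fold change was -0.12 on the log2 scale (SE 0.08), which put siXBP1 at 91.8% of siNC with a 95% interval from 81.1% to 104%. STT3A kept this size with each library left out in turn, from -0.15 to -0.11. STT3B (gene ID 201595, chromosome 3, 31532925 to 31637616) had 173, 174 and 206 CPM in siXBP1, against 172, 218 and 196 CPM in siNC. Its groups overlapped across nearly their whole range, with siNC replicate 1 the lowest library of all. The estimate was -0.08 (SE 0.12), with an interval from 79.0% to 113% of siNC, and it lay between -0.18 and 0.00 with 1 library left out, closest to 0 without siNC replicate 2.

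The 4 subunits shared by both forms had estimates from -0.10 to -0.05. RPN1 and RPN2 encode ribophorins I and II, large membrane subunits of the core. RPN1 had 376, 410 and 371 CPM in siXBP1, against 429, 401 and 395 CPM in siNC. RPN2 had 405, 438 and 401 CPM in siXBP1, against 459, 417 and 413 CPM in siNC. For both genes the highest library was siNC replicate 1, siXBP1 replicate 3 was the lowest, and siXBP1 replicate 2 stood above siNC replicates 2 and 3. The log2 fold changes were -0.08 (SE 0.09) for RPN1 and -0.05 (SE 0.09) for RPN2. Without siNC replicate 1 they were -0.0466 and -0.0045, and without siXBP1 replicate 2 they were -0.14 and -0.10. Their intervals ran from 82.8% to 108% of siNC for RPN1 and from 84.5% to 111% for RPN2. DDOST, which encodes OST48, the subunit that holds the core together, had 179, 180 and 165 CPM in siXBP1, against 203, 178 and 175 CPM in siNC. DAD1, a small subunit named for cell death in a mutant that lacks it, had 68.3, 68.9 and 60.1 CPM in siXBP1, against 77.4, 65.7 and 69.0 CPM in siNC. Again the single high library was siNC replicate 1 and the low one siXBP1 replicate 3. The fold changes were -0.08 (SE 0.10) for DDOST and -0.10 (SE 0.11) for DAD1. Leaving out siNC replicate 1 gave -0.01 and -0.04, and leaving out siXBP1 replicate 3 gave -0.05 and -0.05. The lowest estimates were -0.13 for DDOST, without siNC replicate 3, and -0.16 for DAD1, without siNC replicate 2. Without both of the libraries at those extremes, 3 of the 4 shared genes turned to the other side of 0, RPN2 to 0.03, DDOST to 0.03 and DAD1 to 0.03, and RPN1 was at -0.01. The other small shared subunits, OST4 and TMEM258, which were not among the 10, had -0.08 (SE 0.15) and -0.16 (SE 0.20), and turned to 0.13 and 0.17 in the same fit. OST4 also turned without siNC replicate 1 (0.01) or siXBP1 replicate 3 (0.02). The fit without both libraries cannot tell the group from the first principal component described below. With that component as a covariate, RPN1, RPN2, DDOST and DAD1 had -0.06, -0.03, -0.04 and -0.06. OST4 and TMEM258 had -0.02 and -0.06 there. OST4 and TMEM258 had 35.6 ± 6.39 and 12.9 ± 2.99 CPM in siXBP1, and 37.7 ± 4.33 and 14.5 ± 2.81 CPM in siNC (SD, n = 3 each).

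The accessory subunits of the STT3A form showed no common direction. OSTC (DC2) and KRTCAP2 (KCP2) are small membrane proteins that tie this form to the SEC61 channel. OSTC had 59.1, 62.2 and 72.1 CPM in siXBP1, against 66.2, 69.5 and 66.9 CPM in siNC. Of the siXBP1 libraries, 2 lay below all siNC libraries and replicate 3 above them all, and the estimate was -0.07 (SE 0.11, interval from 80.9% to 113% of siNC). It was -0.0041 without siXBP1 replicate 1 and -0.17 without siXBP1 replicate 3. KRTCAP2 had 91.3, 87.8 and 72.7 CPM in siXBP1, against 97.7, 69.7 and 78.7 CPM in siNC. Its estimate of 0.04 (SE 0.14) had no stable direction, since it lay between -0.08 and 0.18 with 1 library left out and below 0 in 4 of those 6 fits. OSTC has 8 annotated copies named after it, KRTCAP2 has 1 and DAD1 has 1, so that some of their reads could have been split or lost. DAD1P1 alone has a row, with a mean of 1.33 counts.

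**Figure D2:**
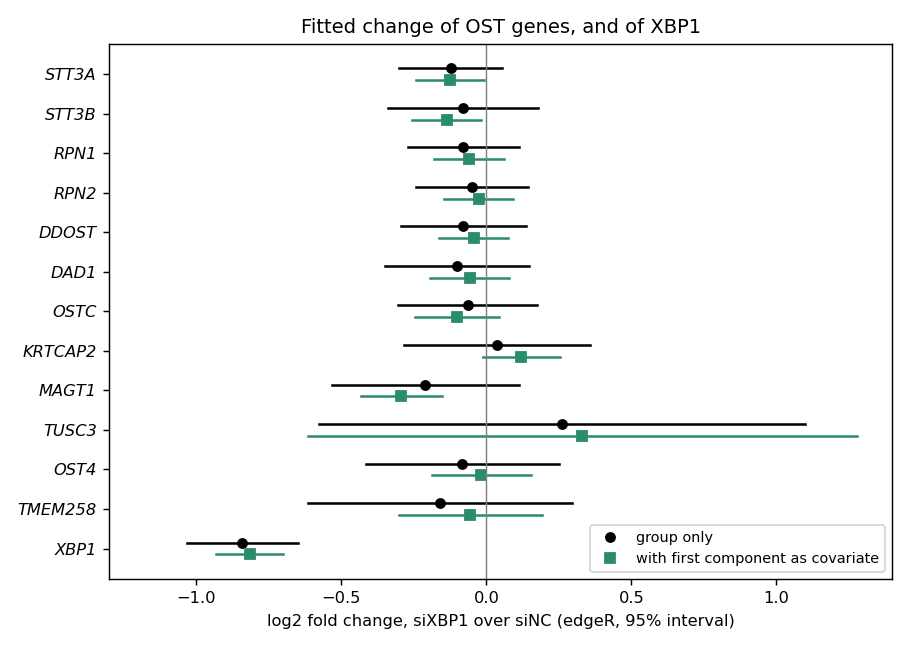
Log2 fold change of siXBP1 over siNC with its 95% interval (horizontal axis) for the 10 OST genes, OST4, TMEM258 and XBP1, in edgeR with group only (circles) and with the score on the first component added (squares). With group only, every interval but that of XBP1 includes 0; with the component, those of STT3A, STT3B and MAGT1 lie below 0, and of these 3 MAGT1 alone passed the adjusted threshold.

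Neither accessory subunit of the STT3B form passed the test, and TUSC3 had far fewer counts than MAGT1. MAGT1 and TUSC3 encode alternative thioredoxin-like oxidoreductases that help STT3B to reach sites near cysteines. MAGT1 (gene ID 84061, chromosome X, 77825747 to 77895568) had 3133, 3638 and 4453 counts in siXBP1, against 3815, 4574 and 4712 in siNC. In CPM this was 81.4, 93.8 and 117 in siXBP1, and 98.1, 118 and 122 in siNC. In siXBP1, 2 libraries lay below all of siNC, and replicate 3 lay among the siNC libraries. The estimate was the lowest of the 10, at -0.21 (SE 0.14), which put siXBP1 at 86.4% of siNC with an interval from 69.1% to 108%. It lay between -0.37, without siXBP1 replicate 3, and -0.10, without siXBP1 replicate 1. TUSC3 (gene ID 7991, chromosome 8) was near the limit of the data, with 38, 37 and 38 counts in siXBP1, against 38, 21 and 36 in siNC. Its estimate of 0.26 (SE 0.37) had an interval from 67.0% to 214% of siNC and came down to 0.03 without siNC replicate 2, the library with 21 counts. Counts of all genes were mostly even among values from 1 to 40 (75.8% to 80.5% per library), as when both mates of a read pair are counted, so TUSC3 may rest on fewer fragments than counts.

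Count ratios within a library need no scaling between libraries, and 2 were tested. They depend on transcript length, so that they are not ratios of molecules. The ratio of STT3A to STT3B, between the catalytic subunits, was 1.24, 1.26 and 1.06 in siXBP1, against 1.39, 1.11 and 1.18 in siNC. The siXBP1 values lay within or just below the range of siNC, and the mean log2 ratio differed by -0.04 (two-sided exact permutation test, p = 0.90, adjusted over the 2 ratios p = 0.90). Its sign was not stable, at 0.05 without siNC replicate 1 and 0.03 without siXBP1 replicate 3. The ratio of MAGT1 to TUSC3 was 82.4, 98.3 and 117 in siXBP1, against 100, 218 and 131 in siNC. The mean log2 ratio differed by -0.53 (exact permutation p = 0.20, adjusted p = 0.40), with SDs of 0.25 in siXBP1 and 0.57 in siNC. With 3 libraries against 3 the exact test cannot go below p = 0.10. The highest value, 218, is that of siNC replicate 2, where TUSC3 had 21 counts, and without that library the difference was -0.22.

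**Figure D3:**
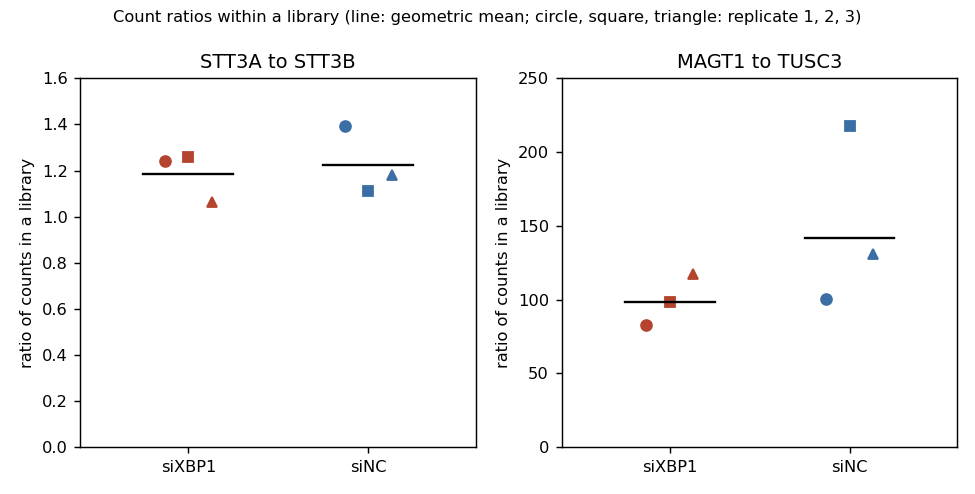
Ratio of counts within each library (vertical axes, from 0) for STT3A to STT3B and for MAGT1 to TUSC3, in siXBP1 and siNC. Lines are geometric means; both pairs of groups overlap, and siNC replicate 2 stands apart at 218 for MAGT1 to TUSC3.

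Summed over the 10 genes, the OST transcripts made up 1649, 1735 and 1686 CPM in siXBP1, against 1842, 1779 and 1749 CPM in siNC. Their mean was 1690 ± 43.1 CPM in siXBP1 and 1790 ± 47.2 CPM in siNC (SD, n = 3 each), a level of 94.4%, and the groups did not overlap. They overlapped after TMM scaling, where siXBP1 replicate 2 had 1762 and siNC replicate 3 had 1749. RPN1 and RPN2 held 47.1% of the sum. Without them, a choice made after seeing the values, the sums ran from 868 to 913 CPM in siXBP1 and from 941 to 961 CPM in siNC, and the groups stood apart under both scalings. No p is given for these sums, since the genes were chosen with results of these data known.

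Many OST genes, like many genes of the table, varied along a gradient that runs through both groups. The first principal component of 11528 genes held 59.4% of the variance. Its ends were siXBP1 replicate 3 (score -0.648) and siNC replicate 1 (0.643), with siXBP1 replicates 1 and 2 at 0.239 and 0.137 and siNC replicates 2 and 3 at -0.29 and -0.0821. The score is a combination of these same expression values. KRTCAP2, DAD1, DDOST, RPN2 and RPN1 had higher levels at higher scores, with Pearson's r of 0.92, 0.95, 0.92, 0.75 and 0.68 over the 6 libraries. STT3B, OSTC and MAGT1 went the other way, with r of -0.85, -0.65 and -0.65, while STT3A (0.14) and TUSC3 (0.30) followed it least. Of the 10, 5 had r above 0.5 and 3 below -0.5, where 35.5% of the 12672 genes averaging 1 CPM or more lay above 0.5 and 34.4% below -0.5, so the OST genes were near the background in this. OST4 (0.89) and TMEM258 (0.92) had high r as well. Subunits of one form did not always vary together: OSTC and KRTCAP2, both of the STT3A form, had r = -0.72 with each other, the STT3B pair STT3B and MAGT1 had 0.84, and OSTC and MAGT1, of different forms, had 0.88. The highest pair was RPN1 with RPN2 (0.96) and the lowest STT3B with KRTCAP2 (-0.97). All these points share their libraries and depth, and the cause of the gradient was not tested.

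**Figure D4:**
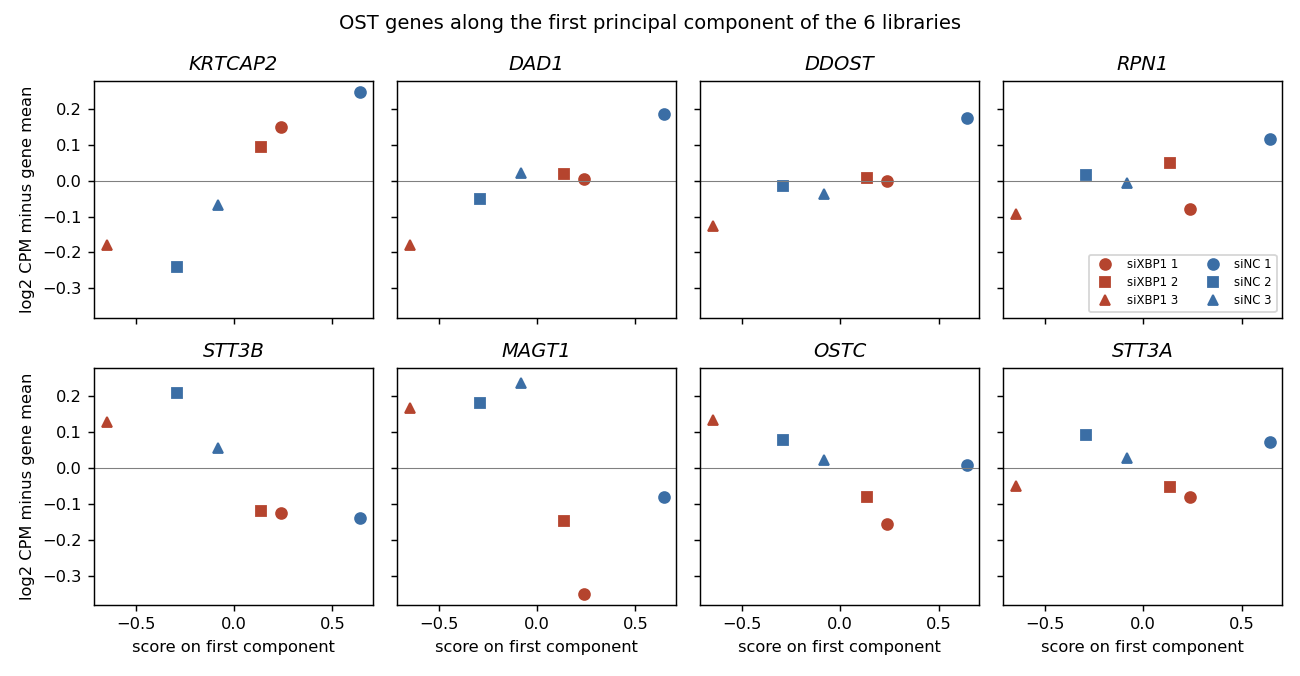
Log2 CPM of 8 OST genes minus each gene's mean over the 6 libraries (vertical axis), against the score on the first principal component (horizontal axis). KRTCAP2, DAD1, DDOST and RPN1 are low in siXBP1 replicate 3 and highest in siNC replicate 1, STT3B, MAGT1 and OSTC are high at the left end, and in STT3A the siXBP1 points lie below the siNC points along the whole axis.

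STT3A also had a small spread, with an SD of 0.07 on the log2 scale over all 6 libraries, against a median of 0.17 over genes averaging 1 CPM or more. That median is not matched for level, since STT3A, RPN1 and RPN2 averaged 228, 397 and 422 CPM. RPN2 (0.07), RPN1 (0.08), DDOST (0.10), OSTC (0.10), DAD1 (0.12) and STT3B (0.15) were below that median too, and KRTCAP2 (0.19), MAGT1 (0.23) and TUSC3 (0.35), the gene with the fewest counts, were above it.

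MAGT1 alone among the 10 was called when the gradient was taken into account. When edgeR was given the component score as a second term, MAGT1 fell by 0.29 on the log2 scale (SE 0.07, adjusted p = 0.0273), to 81.6% of siNC with an interval from 74.1% to 89.9%. In that fit 1.20% of all genes were called, 172 in number, and 1 of 10 OST genes. STT3B (-0.14, SE 0.06, unadjusted p = 0.0249 and adjusted p = 0.332) and STT3A (-0.13, SE 0.06, unadjusted p = 0.0361 and adjusted p = 0.383) did not pass. KRTCAP2 had 0.12 (SE 0.06, adjusted p = 0.494), and the shared subunits lay between -0.06 and -0.03. The score was computed from the same 6 libraries and is taken as known by the fit, so that its standard errors and p-values may be too small. With both end libraries left out instead, MAGT1 was again the single OST gene called, at -0.45 (SE 0.09, adjusted p = 0.00261), beside 4.87% of all genes. STT3B had -0.25 (adjusted p = 0.0847) and KRTCAP2 0.28 (adjusted p = 0.0789) there, while STT3A stayed at -0.12 (adjusted p = 0.467). In the 4 libraries of that fit the 2 siXBP1 scores, 0.239 and 0.137, both lie above the 2 siNC scores, -0.29 and -0.0821, so the gradient and the group cannot be told apart in it. MAGT1 and STT3B are also among the genes with r below -0.5 along the gradient.

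**Figure D5:**
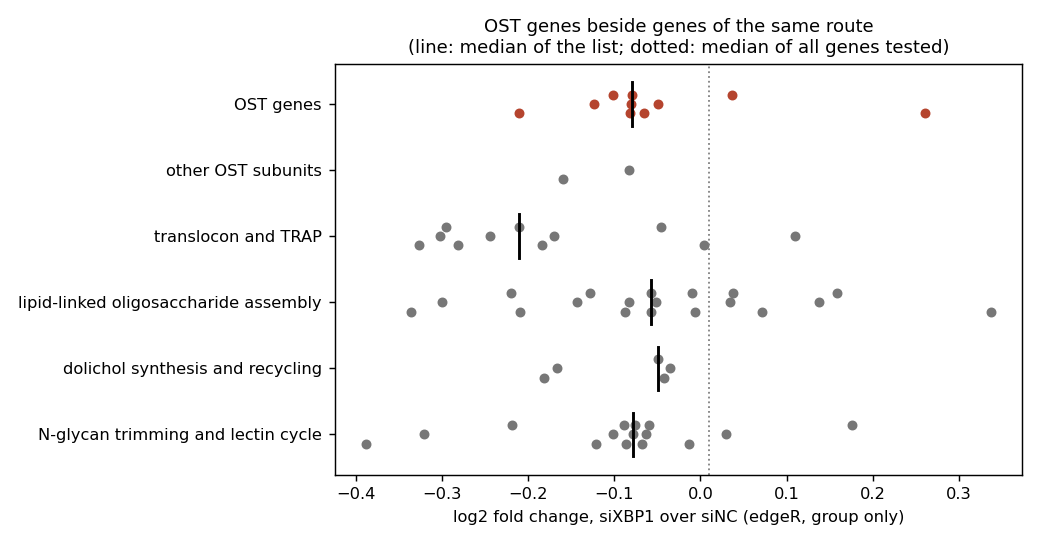
Log2 fold change of siXBP1 over siNC in edgeR with group only (horizontal axis), 1 point for each gene, for the 10 OST genes and 5 lists of genes on the same route. Black lines are list medians and the dotted line is the median of all genes tested, 0.01; the OST median is -0.08 and that of the translocon and TRAP list is -0.21.

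Genes that act before, beside and after the OST complex were set against it in lists chosen with earlier results of these data known. Their shares beside those of all genes are therefore descriptions only. Of 11 genes of the SEC61 translocon and its partner, the TRAP complex, 9 had estimates below 0, with a median of -0.21. SSR3, a TRAP subunit, had the lowest estimate (-0.33, SE 0.09), and SEC61A2, a minor form of the channel, the highest (0.11, SE 0.12). Of 19 genes that assemble the lipid-linked sugar tree, 13 were below 0, with a median of -0.06, from ALG12 (-0.34, SE 0.14), a mannosyltransferase, to ALG10B (0.34, SE 0.25), a glucosyltransferase. Among 5 genes of dolichol synthesis and recycling all 5 were below 0, with a median of -0.05, from DOLPP1 (-0.18, SE 0.14), a dolichyl diphosphate phosphatase, to DHDDS (-0.04, SE 0.11), a subunit of the enzyme that makes the dolichol chain. This direction did not hold: 3 of the 5 were below 0 with the component as a covariate and 2 of 5 without both end libraries. Among 15 genes of glycan trimming and the lectin cycle, 13 were below 0, with a median of -0.08, from ENGASE (-0.39, SE 0.14), a cytosolic enzyme that cuts free glycans, to GANAB (0.18, SE 0.08), the catalytic subunit of glucosidase II. Without both end libraries, 11 of 19 assembly genes (median -0.0124) and 11 of 15 trimming genes (median -0.0635) were below 0. For translocon and TRAP it was 9 of 11 (median -0.24). With the covariate these counts were 13 of 19, 13 of 15 and 10 of 11. The siXBP1 libraries lay below all siNC libraries for 5 of 11 translocon and TRAP genes, 4 of 19 assembly genes, 0 of 5 dolichol genes and 5 of 15 trimming genes, where this held for 3.74% of all genes. They lay above for 1 translocon or TRAP gene, 1 trimming gene and none of the other lists, against 5.01% of all genes. No gene of these lists was called (edgeR, group only). At an unadjusted p under 0.05 there were 4 of 11, 2 of 19, 0 of 5 and 2 of 15, in the same order, against 3.61% of all genes. With the component as a covariate, SEC61A1 (-0.28), SSR1 (-0.36) and SSR3 (-0.35) of the first list, ALG2 (-0.30) of the second and EDEM1 (-0.36) of the last were called as lower, against MAGT1 among the OST genes. Of these, all but SSR3 are named after their values were seen. The difference between the lists was not tested.

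Genes with the most similar course were found by correlating log2 CPM with the mean of the 10 centred OST profiles. Over the 6 libraries, among 12660 other genes averaging 1 CPM or more, the 5 with the highest Pearson's r were HOXD9 (0.965), HNRNPA1P10 (0.965), PCDH10 (0.96), SNORA70 (0.96) and FAM131A (0.95). These 5 averaged between 2.55 and 8.37 CPM, and 31 genes exceeded 0.9. The list turned on TUSC3, whose 21 counts in siNC replicate 2 put it 0.70 below its own mean there: the profile in that library was -0.05 with TUSC3 and 0.03 without it. With the other 9 OST genes, an alternative chosen after seeing the data, none of the 5 remained among the top 5, and HOXD9 came to 0.75, HNRNPA1P10 to 0.84, PCDH10 to 0.69, SNORA70 to 0.72 and FAM131A to 0.67. The highest were then SEC61G (0.98), which encodes a small subunit of the SEC61 channel, PDLIM3 (0.98), NPTN (0.98), SIRT5 (0.96) and COPG1 (0.96), and 41 genes exceeded 0.9. The likeness over so few libraries is a description only.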

How the data were processed

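Samples were grouped by their titles. The authors deposited raw read counts, as whole numbers by NCBI Gene ID, for 6 RNA-seq libraries. The authors' steps are known only from the submitters' processing notes, which name STAR 2.5.2a, featureCounts 1.5.0 and the hg38 build; the annotation and the strand setting of the counting were not found in the sources used, although the kit is strand-specific per the labels' protocols. STT3A and DDOST overlap annotated antisense genes, which have no row and whose reads could be counted with theirs. The same holds for TUSC3, the gene with the fewest counts. It overlaps annotated long non-coding RNAs by 27861 and 32974 bases and pseudogenes by 1006 and 995 bases, all without a row. OST4 overlaps the protein-coding gene AGBL5 by 147 bases, and AGBL5 averaged 1752 counts. RPN2 overlaps MROH8 by 219 bases, and MROH8 averaged 10.8 counts. The effect of these overlaps was not tested. A short text file and the 2 ChIP-seq samples were not analysed here. RefSeq symbols (GRCh38.p14) matched 18526 of 18555 IDs, and gene coordinates are from that build.

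Genes passing filterByExpr were scaled by TMM factors, and the quasi-likelihood F test of edgeR 4.0.16 (R 4.3.3) compared the groups with no other term. Its two-sided p-values were adjusted by Benjamini-Hochberg over all genes tested at a threshold of 0.05. The standard error is the log2 fold change divided by the square root of F, and intervals are at 95%. CPM use library totals. The principal components used genes averaging 100 counts or more, on the log2 CPM scale. Alternatives were DESeq2 1.42.0, limma-voom (limma 3.58.1), other scalings and filters, a replicate block, fits without single libraries or without both end libraries of the first component, and the first component as a covariate. The edgeR procedure was tested on simulated counts with independent genes, no shared gradient and changes larger than those of the OST genes. That test therefore does not cover the gradient found here or changes as small as these. Same-numbered libraries did not deviate together in every pair (r = 0.60, -0.36 and 0.43), so numbers were not taken to pair samples. No replicate pair agreed within sampling noise. No label says whether replicates came from separate cultures. The p-values therefore reflect only how these samples spread, which may be technical.

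The 10 genes, the lists beside them and the rule for named genes (all 10, the extreme members of each list, and the 5 most similar genes) were chosen with earlier results of these data known.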

Additional observations from a re-analysis of the deposited data

How the results depend on the processing

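Of 159 refits of the 10 OST genes, 150 kept the direction and the side of the threshold. MAGT1 was called in 2 (-0.293 with the first component as a covariate, -0.4478 without both end libraries), so that 1 OST gene was called in each of these fits, and 7 turned: without both end libraries RPN2 (0.0259), DDOST (0.0345) and DAD1 (0.0313), and with 1 library left out KRTCAP2, whose estimate ran from -0.0786 to 0.1768. Without both end libraries OST4 (0.1313), TMEM258 (0.1684), DOLPP1 (0.0241), DHDDS (0.0781) and ALG10B (-0.1776) turned too, DHDDS also with the covariate (0.0017), and with 1 library left out OST4 ran from -0.2251 to 0.0174, DHDDS from -0.0968 to 0.0209 and ALG10B from -0.0092 to 0.5017. The median of the OST genes moved to 0.0066 without both end libraries, was -0.0592 with the covariate, and lay between -0.109 and -0.0415 with 1 library left out. The causes were not tested. Genes called over the whole table numbered 1, against 0 with upper-quartile factors, 15 with DESeq2, 172 with the covariate, 702 without both end libraries, and 0 to 1 with 1 library left out. TUSC3 did not pass the filter of 1 CPM in 3 libraries. The replicate block gave 1 called gene and 0 OST genes, and siXBP1 replicate 3 correlated best with siNC replicate 2 (0.65), not with its own number. The STT3A to STT3B log2 ratio moved to 0.1273 without both end libraries. Depth limits TUSC3, with 21 to 38 counts per library, where the floor of 3 counts is 0.077 to 0.079 CPM.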
